A study of Mus musculus with 8 samples.

Results

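Small leucine-rich proteoglycans are secreted matrix proteins built on a curved array of leucine-rich repeats, and 10 of their genes are described here: Dcn, Bgn, Aspn, Lum, Fmod, Prelp, Omd, Ogn, Chad and Podn. They were taken by gene name from the array annotation, with every probe of each gene. The array carries 1 probe for each, so the family members make up 10 of 55653 probes and 10 of 24034 named genes. The rule of gene names used no measured value, but the members were chosen with earlier results of these data known. All 10 genes passed the filter on dim probes, as did 17475 genes in all.

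In connective tissue these proteins coat collagen fibrils, set their diameter and spacing, and bind growth factors such as TGF-beta. Most carry glycosaminoglycan chains: chondroitin or dermatan sulfate on decorin and biglycan, keratan sulfate or unsulfated lactosamine chains on the lumican branch. In the lung, fibroblasts of the vessel and airway sheaths and of the alveolar wall are the usual source of this matrix, and decorin and lumican are widely used as fibroblast transcripts.

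Messenger RNA was hybridised to 8 Agilent mouse arrays with a single dye, in 4 groups of 2. The groups are 3 sorted lung fibroblast populations, called A-type, B-type and C-type, and pulmonary single cells (Pu), the mixed lung cells. All came from adult female C57BL/6 mice aged 12 to 16 weeks, freshly isolated and without a treatment or a genetic change, with 50000 cells in each independently prepared sample. The sort used antibodies to Pdgfra, Thy-1 and Sca-1, and to E-Cadherin, CD146, CD31, CD45, TER119 and Lyve-1 for other lineages. The gate of each type and the number of mice behind a sample are not given in the sources used here, so the p-values measure the spread between these preparations. Arrays are called A1 to C2 and Pu1 and Pu2 by group and replicate. Values are scaled log2 signals: the log2 processed signal minus the 75th percentile of that array, so 0 is the array's upper quartile and a step of 1 is a doubling. Such levels are compared across arrays for the same probe and never between probes.

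The 75th percentile of signal ranged from 163 to 182 units on the A and B arrays, was 138 on C1 and 110 on C2, and was 126 on Pu1 and 250 on Pu2. C2 had the smallest share of spots well above background, 54.6%, and both Pu arrays the largest, 68.7%, by the scanner software's call. No probe was saturated. Both Pu arrays lay on one slide and were scanned together, and all 6 fibroblast arrays lay on another, so an effect of slide or scan cannot be told apart from any difference between a fibroblast type and Pu. The differences between types lie within 1 slide.

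Probe sequences are shown for Dcn and Bgn, the 2 main chondroitin and dermatan sulfate carriers, because they lie in an open reading frame and show what each value reads. The Dcn probe is given up to the stop codon (in capitals), mm9 chr10:96980233-96980289, plus strand, and the Bgn probe in full, mm9 chrX:70738554-70738613, plus strand.
Dcn: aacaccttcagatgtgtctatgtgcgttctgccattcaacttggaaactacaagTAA
Bgn: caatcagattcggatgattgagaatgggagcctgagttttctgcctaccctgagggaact
A single mRNA region is therefore read for each gene, and isoforms that lack it would not be seen. The Prelp probe is annotated to a cDNA clone and was assigned by its symbol; the other 9 were assigned by RefSeq accession. By the mm9 positions in the scanner files, the probes of Dcn and Lum lie on chromosome 10, those of Aspn, Omd and Ogn on 13, Prelp and Fmod on 1, Chad on 11, Podn on 4 and Bgn on X.

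The 250 bases before the annotated start are shown for the 3 adjacent genes Aspn, Omd and Ogn and for Chad, the member that was lower in fibroblasts. They come from RefSeq on GRCm38.p6, all on the plus strand, at chr13:49544193-49544442 for Aspn, chr13:49582212-49582461 for Omd, chr13:49607765-49608014 for Ogn and chr11:94564797-94565046 for Chad. Capitals mark TATAAA on either strand; where 2 matches overlap they run together.
Aspn: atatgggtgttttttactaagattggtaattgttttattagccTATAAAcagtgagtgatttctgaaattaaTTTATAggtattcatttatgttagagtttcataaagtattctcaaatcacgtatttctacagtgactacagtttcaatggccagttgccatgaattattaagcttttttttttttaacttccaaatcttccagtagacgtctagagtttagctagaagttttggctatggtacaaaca
Omd: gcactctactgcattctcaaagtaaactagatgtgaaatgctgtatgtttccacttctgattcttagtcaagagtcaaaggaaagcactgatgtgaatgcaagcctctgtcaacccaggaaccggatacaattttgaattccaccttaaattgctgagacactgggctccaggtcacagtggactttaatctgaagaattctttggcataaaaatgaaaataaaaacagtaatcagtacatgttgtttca
Ogn: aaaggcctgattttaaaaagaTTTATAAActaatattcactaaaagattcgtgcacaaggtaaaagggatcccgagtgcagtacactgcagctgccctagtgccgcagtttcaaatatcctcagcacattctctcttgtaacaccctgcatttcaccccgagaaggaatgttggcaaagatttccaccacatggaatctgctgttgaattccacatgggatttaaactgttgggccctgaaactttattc
Chad: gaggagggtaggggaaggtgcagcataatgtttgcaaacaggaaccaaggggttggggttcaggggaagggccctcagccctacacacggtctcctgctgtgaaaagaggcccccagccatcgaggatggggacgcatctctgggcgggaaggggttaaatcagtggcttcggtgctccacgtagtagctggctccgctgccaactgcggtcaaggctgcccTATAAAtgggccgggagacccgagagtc
These windows differ most in base composition. G and C made up 30.0% of the Aspn window, 38.4% for Omd and 42.0% for Ogn, against 60.4% for Chad, and only 1.5% of the 32851 promoter windows of the table had a lower share than Aspn. TATAAA occurred in 12.4% of all windows. The Chad match begins 28 bases before the start, while those of Aspn and Ogn lie more than 100 bases away. Of the 10 genes, 8 matched the promoter table; Dcn and Lum are not listed there. Each match is a run of letters and describes no factor.

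In every sorted fibroblast type, 8 family members had higher mRNA than in the mixed lung cells: Dcn, Bgn, Aspn, Lum, Prelp, Omd, Ogn and Podn, by 3.64-fold (Prelp in B) to 132-fold (Lum in B). Chad was lower in all 3 types and Fmod passed the test in none. These 8 of 10 genes called higher compare with 14.9% of all tested genes in A minus Pu, 16.3% in B minus Pu and 14.8% in C minus Pu. The gene called lower, 1 of 10, compares with 11.9%, 13% and 13.8%. The median log2 difference of the 10 genes was 3.71 in A, 3.33 in B and 2.97 in C, against 0.11, 0.11 and 0.05 for all tested genes. Calls are limma tests with Benjamini-Hochberg adjusted p under 0.05 over all 17475 genes, and the 3 comparisons share the Pu arrays. In mixed cells, fewer fibroblasts and less RNA per fibroblast cannot be told apart.

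**Figure D1:**
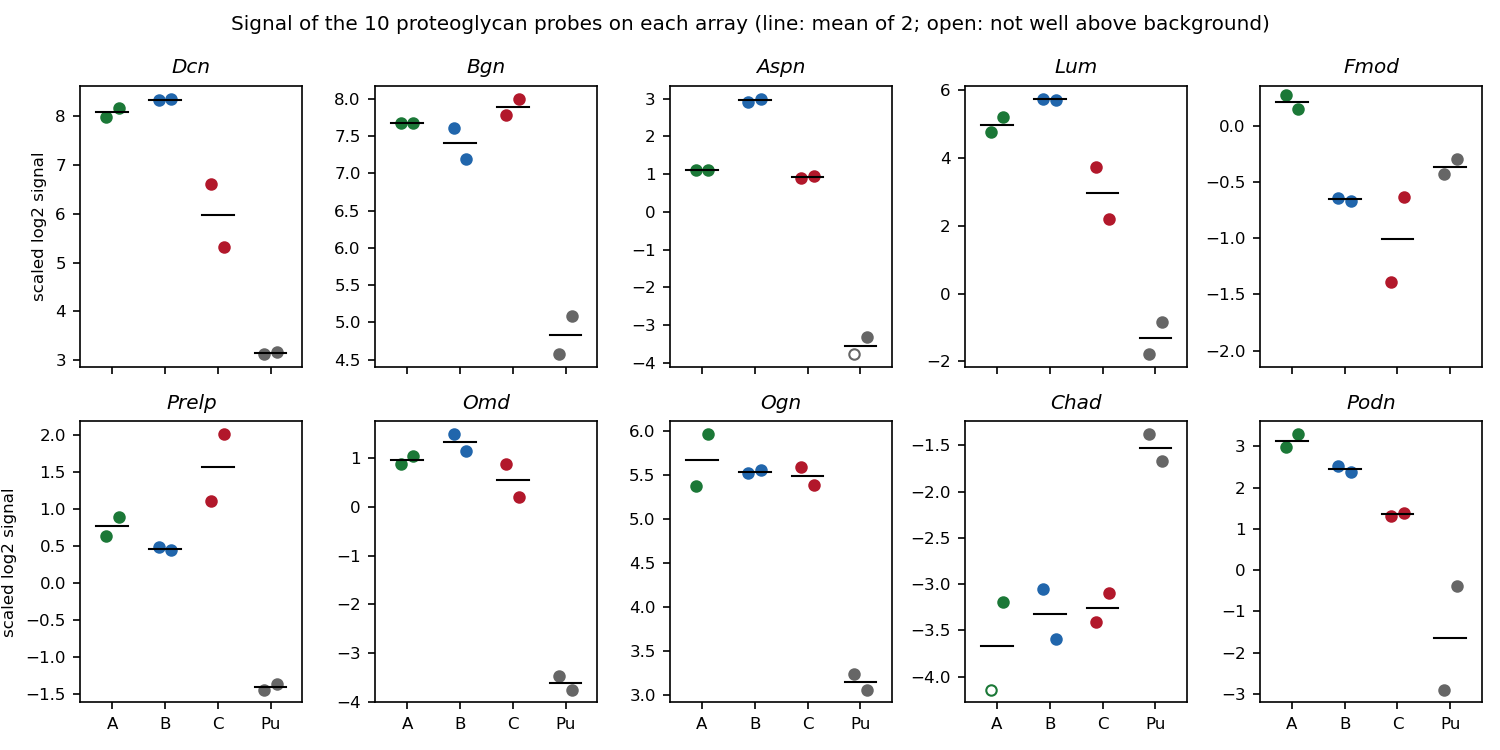
Scaled log2 signal (y axis, a scale of its own in each panel) of each of the 10 probes on the 2 arrays of each fibroblast type (A, B, C) and of pulmonary single cells (Pu, x axis); lines are means of 2 and open points were not well above background. In 8 panels all 6 fibroblast points lie above both Pu points, in the Chad panel all 6 lie below them, and in the Fmod panel A lies above and B and C below. The share of all tested genes that separate in this way was not counted.

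Decorin, biglycan and asporin form class I of the family. Decorin, encoded by Dcn, binds collagen I fibrils, limits their lateral growth and sequesters TGF-beta. Its signal was 7.98 and 8.18 on the A arrays, 8.33 and 8.36 on the B arrays and 6.62 and 5.33 on the C arrays, against 3.12 and 3.16 in Pu. Both C arrays lay below all A and B arrays and above both Pu arrays. The log2 difference from Pu was 4.95 ± 0.43 in A (SE of the limma fit over 8 arrays, the same for a gene in each comparison; 30.8-fold, adjusted p = 0.000326), 5.21 in B (36.9-fold, 0.000259) and 2.83 in C (7.12-fold, 0.00345). The C value was 2.19 without C1 and 3.48 without C2, and it passed the test in both cases.

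Biglycan, encoded by Bgn, usually bears more glycosaminoglycan chains than decorin and, when soluble, activates toll-like receptors on macrophages. The probe gave 7.67 and 7.68 on the A arrays, 7.61 and 7.19 on the B arrays and 7.78 and 8.0 on the C arrays, against 4.57 and 5.08 in Pu. Unlike for Dcn, the C arrays were the highest, and all 6 fibroblast arrays lay between 7.19 and 8.0. The differences from Pu were 2.85 ± 0.31 in A (7.22-fold, limma adjusted p = 0.000857), 2.58 in B (5.97-fold, 0.00131) and 3.07 in C (8.39-fold, 0.00066).

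Asporin, encoded by Aspn, has an aspartate-rich amino terminus in place of the chain attachment sites of its relatives, and it competes with decorin for collagen. The probe gave 1.11 and 1.12 on the A arrays, 2.91 and 3.0 on the B arrays and 0.91 and 0.95 on the C arrays, against -3.78 and -3.32 in Pu, where Pu1 was not well above background. The B arrays stood apart from all others at the top. Differences from Pu were 4.67 ± 0.28 in A (25.4-fold, limma adjusted p = 0.000113), 6.50 in B (90.8-fold, 5.77e-05) and 4.48 in C (22.3-fold, 0.000144). With normexp background correction, which adds an offset of 50 units and so draws dim signals together, they were 2.51, 4.17 and 2.27, all still past the threshold.

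Class II holds lumican, fibromodulin, PRELP and osteomodulin. Lumican, encoded by Lum, regulates fibril assembly and carries keratan sulfate in the cornea. Lum gave 4.76 and 5.21 on the A arrays, 5.75 and 5.72 on the B arrays and 3.73 and 2.19 on the C arrays, against -1.79 and -0.84 in Pu. As for Dcn, both C arrays lay between Pu and the other types, with C2 the lower. Lum had the largest differences of the 10 genes in A, 6.29 ± 0.56 (78.5-fold, limma adjusted p = 0.000343), and in B, 7.05 (132-fold, 0.000219). In C it was 4.27 (19.3-fold, 0.00184), with 3.50 without C1 and 5.04 without C2. Normexp gave 5.43, 6.15 and 3.32 for A, B and C.

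Fibromodulin, encoded by Fmod, binds collagen I close to lumican's site and guides lysyl oxidase cross-linking. The probe gave 0.27 and 0.15 on the A arrays, -0.64 and -0.67 on the B arrays and -1.39 and -0.63 on the C arrays, against -0.43 and -0.30 in Pu. Group means therefore spanned only 1.22, with A above Pu and B and C below it. None of the differences passed the limma test: 0.58 ± 0.33 in A (adjusted p = 0.235), -0.29 in B (0.535) and -0.64 in C (0.189). The 95% intervals ran from -0.20 to 1.35 in A, -1.06 to 0.48 in B and -1.42 to 0.13 in C, so these arrays do not show that the gene is even across the groups.

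PRELP, encoded by Prelp, has a basic amino terminus that binds heparan sulfate and links basement membranes to collagen. Its signal was 0.64 and 0.89 on the A arrays, 0.48 and 0.44 on the B arrays and 1.11 and 2.01 on the C arrays, against -1.44 and -1.37 in Pu. The order C, A, B, Pu is the one seen for Bgn. Differences were 2.17 ± 0.36 in A (4.51-fold, limma adjusted p = 0.00466), 1.86 in B (3.64-fold, 0.00846) and 2.96 in C (7.8-fold, 0.00132), and 1.48, 1.20 and 2.07 with normexp. The B call was lost without B1 (adjusted p = 0.0637) or without B2 (0.0581).

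Osteomodulin, encoded by Omd and also called osteoadherin, is a keratan sulfate proteoglycan known from bone. Omd gave 0.87 and 1.05 on the A arrays, 1.49 and 1.15 on the B arrays and 0.87 and 0.21 on the C arrays, against -3.47 and -3.75 in Pu. The 6 fibroblast arrays ran from 0.21 to 1.49, all far above both Pu arrays. Differences were 4.57 ± 0.33 in A (23.7-fold, limma adjusted p = 0.000178), 4.93 in B (30.5-fold, 0.000137) and 4.14 in C (17.7-fold, 0.000279). With normexp they were 2.41, 2.71 and 2.05.

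Osteoglycin, the class III protein encoded by Ogn and also called mimecan, takes part in fibril assembly. It had the most even level across the sorted types: 5.37 and 5.96 on the A arrays, 5.52 and 5.55 on the B arrays and 5.59 and 5.38 on the C arrays, against 3.24 and 3.06 in Pu. The 3 types overlapped each other and none overlapped Pu. The differences were 2.51 ± 0.31 in A (5.71-fold, limma adjusted p = 0.00133), 2.39 in B (5.23-fold, 0.00165) and 2.33 in C (5.04-fold, 0.00187).

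Podocan, encoded by Podn and first described in kidney podocytes, binds collagen I. The probe gave 2.98 and 3.30 on the A arrays, 2.53 and 2.39 on the B arrays and 1.32 and 1.38 on the C arrays, against -2.90 and -0.38 in Pu. The fibroblast types stepped down from A to B to C without overlap, while the Pu arrays lay far apart (SD 1.78, n = 2, the largest within a group for any of the 10 genes). Differences were 4.78 ± 0.72 in A (27.4-fold, limma adjusted p = 0.00327), 4.09 in B (17.1-fold, 0.00613) and 2.98 in C (7.91-fold, 0.0216). Without Pu1 they were 3.52, 2.83 and 1.72, and without Pu2 they were 6.04, 5.35 and 4.24, all past the threshold. The C call was lost without C1 (adjusted p = 0.0676) or C2 (0.0763) and with only the 4 compared arrays (0.0755), and normexp gave 3.45, 2.78 and 1.72.

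Chondroadherin, encoded by Chad, is a cartilage protein that binds integrin on chondrocytes and carries no typical glycosaminoglycan chain. It ran the other way, at -4.14 and -3.19 on the A arrays, -3.05 and -3.59 on the B arrays and -3.41 and -3.10 on the C arrays, against -1.38 and -1.67 in Pu. It was dim everywhere and A1 was not well above background, yet no fibroblast array reached either Pu array. Differences were -2.14 ± 0.40 in A (4.41-fold lower, limma adjusted p = 0.00823), -1.79 in B (3.47-fold lower, 0.0161) and -1.73 in C (3.32-fold lower, 0.0187). Under normexp the differences were -0.75 (adjusted p = 0.035), -0.61 (0.0759) and -0.50 (0.143), and with array weights none passed (0.0771, 0.115 and 0.213). Without A1 the A difference was -1.66 (0.0613), the B call was lost without Pu1, B1 or B2, and the C call without Pu1 or C1.

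**Figure D2:**
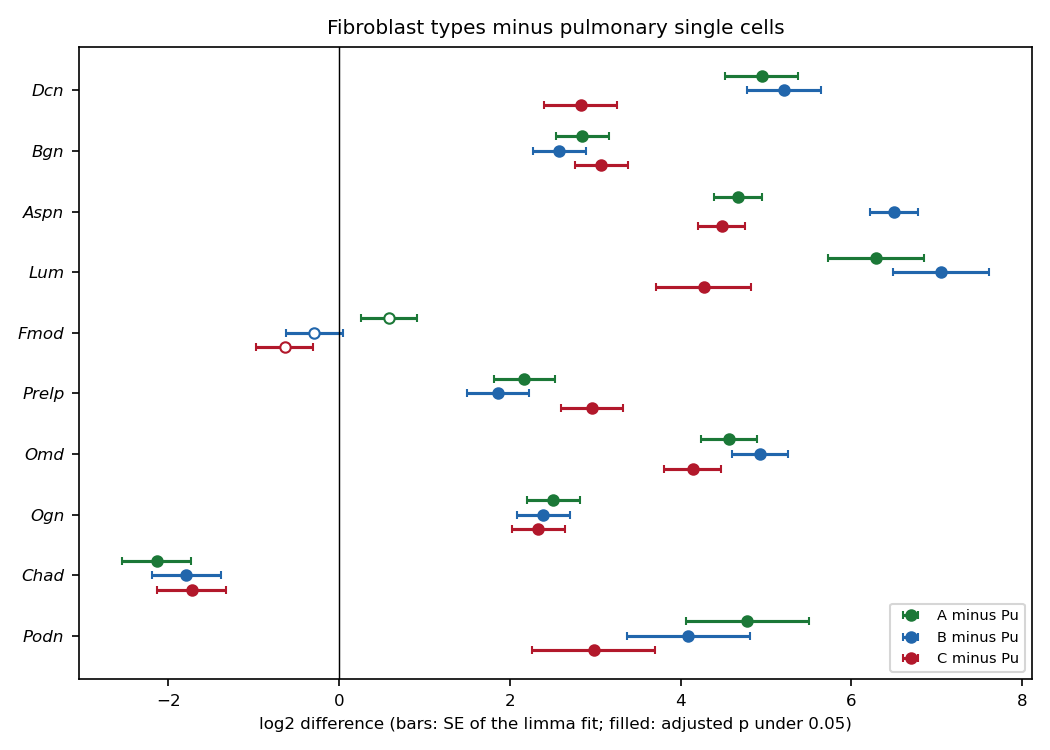
Log2 difference (x axis, bars: SE of the limma fit) of the A, B and C fibroblast types from pulmonary single cells for each of the 10 genes (y axis); filled points have an adjusted p under 0.05. Lum in B is farthest to the right at 7.05, the 3 Chad points lie left of 0 and the 3 Fmod points are open.

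Among the sorted types, Dcn and Aspn were higher in B than in C, and no other difference between types passed the test for these genes. Dcn differed by 2.37 ± 0.43 (5.18-fold, limma adjusted p = 0.0407) and Aspn by 2.02 ± 0.28 (4.07-fold, 0.0169), with both B arrays above both C arrays in each case. These 2 of 10 genes called higher compare with 1.27% of all tested genes, and 0 of 10 called lower with 1.16%. Lum had a larger difference, 2.78 ± 0.56 (6.84-fold), and missed the threshold with an adjusted p of 0.0572. It passed in 4 of 20 alternatives: normexp (0.00736), array weights (0.0196), probes above background on all 8 arrays only (0.0362) and without C1 (3.55, 0.0184).

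The B minus C calls were lost under many of the alternatives. A and Pu arrays do not enter the B minus C difference. Leaving out an A or Pu array therefore changes only the estimate of spread shared by the groups. For Dcn the difference was 3.02 without C1 and 1.73 without C2, and leaving out any array other than C1 ended the call (adjusted p 0.0508 to 0.258), as did no filter on dim probes (0.0765). For Aspn the difference stayed between 1.89 and 2.07 under every alternative run, and the call was lost without A1, A2, B1, B2 or C2 (0.0635 to 0.176), with quantile normalization (0.0539) and with only the 4 compared arrays (0.0542). Blocking on the replicate number kept Aspn (0.0363) and not Dcn (0.0663). With the 6 fibroblast arrays alone, a setting added after seeing the data, Dcn was at 0.0508.

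In A minus C, 0 of 10 genes were called higher, against 0.275% of all genes, and 0 lower, against 0.114%. Dcn differed by 2.11 (95% interval 1.1 to 3.13, limma adjusted p = 0.102), Lum by 2.02 (0.71 to 3.34, 0.198), Podn by 1.79 (0.09 to 3.50, 0.359) and Fmod by 1.22 (0.44 to 1.99, 0.189). Each interval is per gene and unadjusted. Normexp called Dcn (0.0311) and Podn (0.0304), array weights called Dcn (0.0491), and leaving out C1 called Dcn (2.76, 0.0233) and Lum (2.80, 0.046). Podn was called at 0.0397 with the 6 fibroblast arrays alone, or without either Pu array.

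In A minus B, limma called 0 of the 10 genes, and 0% of all tested genes in either direction, while 565 genes (3.23%) had an unadjusted p under 0.05. Normexp called 21 genes and array weights 236. The widest of the 10 was Aspn at -1.84 ± 0.28, 3.58-fold lower in A (95% interval -2.51 to -1.17, adjusted p = 0.216), with no overlap of arrays. Normexp called it (-1.66, 0.0355), as did array weights (0.00644). Intervals for Bgn (-0.47 to 1.02), Ogn (-0.60 to 0.85) and Omd (-1.15 to 0.42) leave room for differences of up to about 1 log2 unit.

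Ordering the groups by level, Dcn, Aspn, Lum and Omd ran B, A, C, Pu, while Bgn and Prelp ran C, A, B, Pu. Ogn and Podn ran A, B, C, Pu, Fmod ran A, Pu, B, C and Chad ran Pu, C, B, A. For the 8 genes raised in fibroblasts, the step between the lowest type and Pu was the only step between neighbours in the order that passed the limma test, and for Chad it was the step between C and Pu. No step passed for Fmod.

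**Figure D3:**
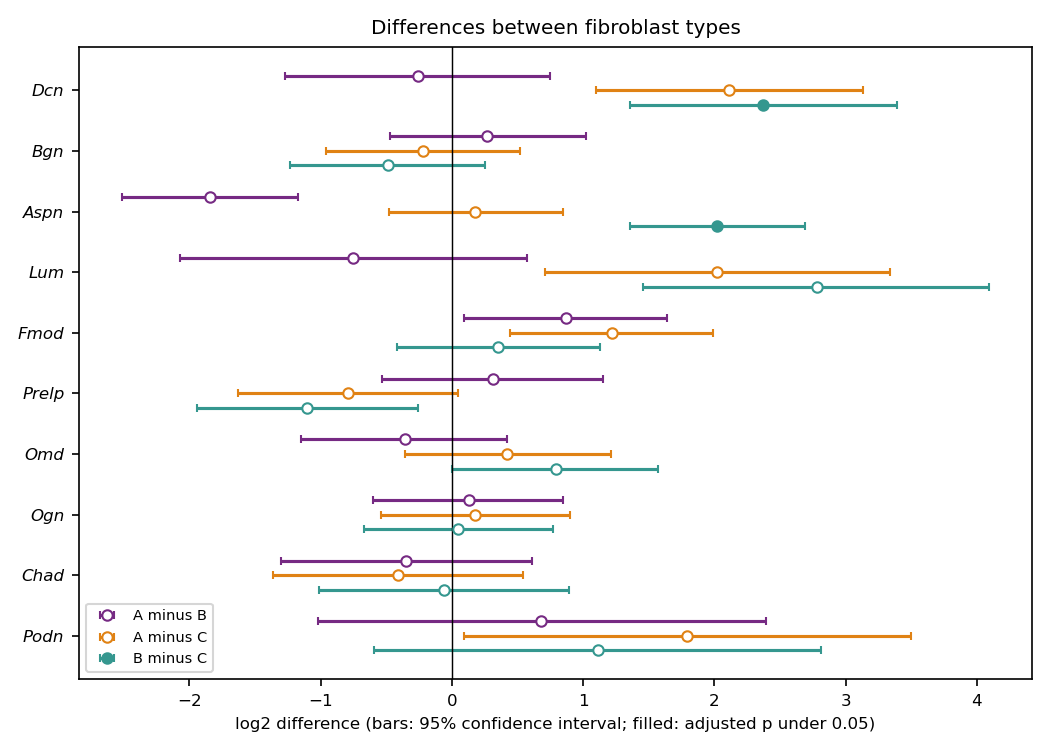
Log2 difference between fibroblast types (x axis, bars: unadjusted 95% confidence interval of the limma fit) for each of the 10 genes (y axis), as A minus B, A minus C and B minus C; filled points have an adjusted p under 0.05. The 2 filled points are Dcn at 2.37 and Aspn at 2.02 in B minus C, while the points of Bgn, Ogn and Chad lie near 0 in all 3 comparisons.

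Genes with the pattern most like each member were taken as those with the smallest root mean square difference of centred log2 signal over the 8 arrays, among 15393 genes with plain symbols. These points share the same 8 arrays, so the likeness is a description. Nearest to Dcn was Apod, the lipocalin apolipoprotein D, at 0.27, followed by Enpp3, an ectonucleotidase, at 0.28. Enpp3 gave 0.43 and 0.59 on the A arrays, 0.75 and 0.73 on B, -1.01 and -1.80 on C and -4.93 and -4.92 in Pu, so it shared Dcn's low C2. Both Enpp3 values in Pu lay below the lowest signal that was well above background there, while Dcn was well above background in Pu. Enpp3 was also the second for Lum at 0.58, after Fbln2, an elastic fibre protein, at 0.52.

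The nearest to Aspn were Tnfaip6, a hyaluronan-binding protein, at 0.47, and Has1, a hyaluronan synthase, at 0.50. Has1 gave 6.23 and 6.44 on the A arrays, 6.82 and 6.99 on B, 5.53 and 5.31 on C and 1.33 and 1.53 in Pu. Bgn was closest to Ltbp1, a latent TGF-beta binding protein, at 0.16, and to Tmem150a at 0.17. Omd was closest to Islr and to the chemokine gene Cxcl1, both at 0.21. Prelp was closest to Lrfn4 at 0.19 and Tmem119 at 0.21, and Ogn to Hacd1 at 0.11 and Krtap11-1 at 0.13. Podn lay nearest to Abcc9, a potassium channel subunit on the pericyte marker list, at 0.29, and to the complement gene C2 at 0.34. The 5 pericyte markers were split in each type, with 2 higher (Abcc9 and Kcnj8), 2 lower (Rgs5 and Trpc6, well above background on no fibroblast array) and Cspg4 not called. Chad lay nearest to Acaa1b, a peroxisomal thiolase, at 0.24 and to Clec5a, a myeloid receptor, at 0.25. On every fibroblast array Clec5a lay below the lowest signal that was well above background there. Fmod was not searched because its group means spanned less than 2 log2 units. Within the family the nearest member of Bgn was Ogn at 0.38, that of Prelp was Bgn at 0.40 and that of Aspn was Omd at 0.69. That of Dcn was Omd at 0.71 and that of Lum was Dcn at 0.73. Each was wider than the same gene's nearest outside the family. Only 9 genes were searched within the family against 15393 outside it, so these distances cannot be compared.

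Several of these genes sit beside each other in the mouse genome, in the gene order of RefSeq on GRCm38. On chromosome 13 the order is Cenpp, Ecm2, Aspn, Omd, Ogn, Nol8, Iars. Ecm2, itself a leucine-rich repeat gene, was higher in A by 3.59 ± 0.80 (limma adjusted p = 0.0166) and in B by 3.88 (0.0119), with Pu1 not well above background, and differed by 2.35 in C (0.0681). Both calls were lost without Pu1 and without either array of the type concerned, and normexp gave 1.90 in A and 2.10 in B. Cenpp, Nol8 and Iars passed the test in no comparison with Pu. On chromosome 10 Dcn and Lum are adjacent, with Btg1, an antiproliferative gene, near them and lower, with a log2 difference of -1.21 in A, one of -1.61 in B and one of -1.05 in C. Epyc, the epiphycan gene on the other side, was called in A (1.95) and B (2.96) from signals not above background in Pu, and under normexp it was called in neither. Prelp and Fmod are neighbours on chromosome 1 and differed in pattern. Of the 24 non-member genes within 2 places of a member, 17 were tested, and 3 were higher and 1 lower in A, 4 and 1 in B, and 3 and 1 in C. These counts are close to the shares of all tested genes given above (14.9% and 11.9% in A, 16.3% and 13% in B, 14.8% and 13.8% in C). Besides Ecm2 and Epyc, Echdc2 near Podn was higher by 3.52 in A (limma adjusted p = 0.00278), 2.73 in B (0.00772) and 3.13 in C (0.00462). Rsad1 near Chad was higher in B (1.87, 0.0279) and C (2.00, 0.0222), and Btg2 near Prelp and Fmod in C (1.46, 0.0131).

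**Figure D4:**
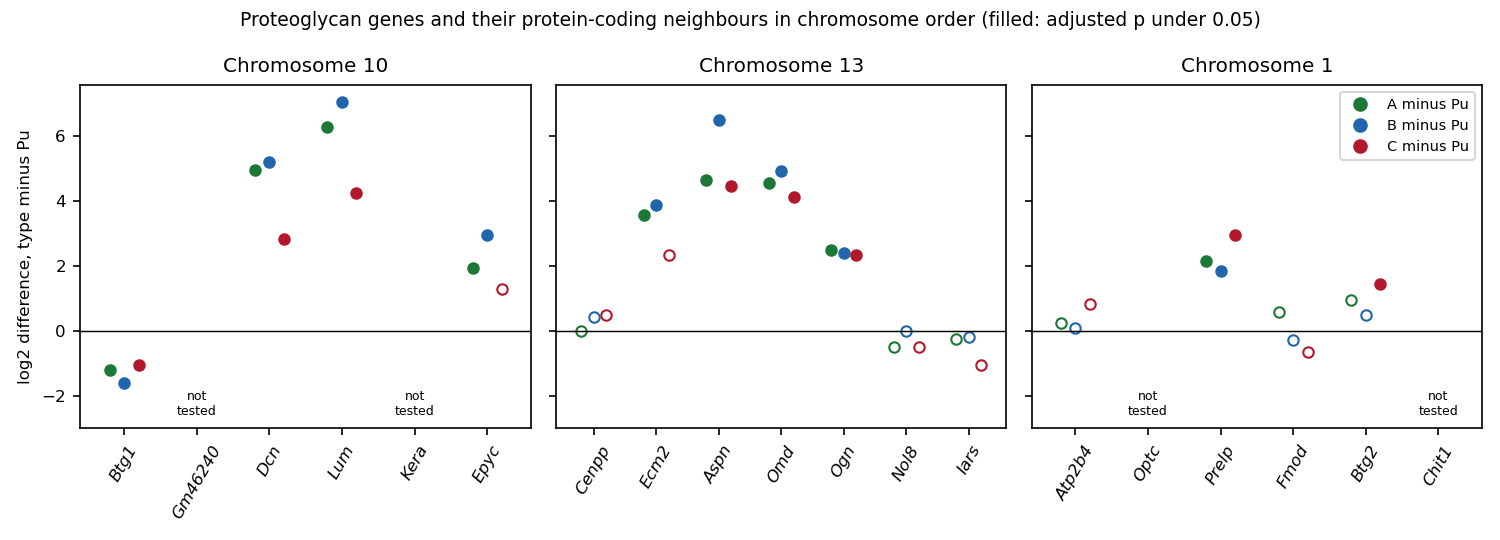
Log2 difference of the A, B and C fibroblast types from pulmonary single cells (y axis) for the genes around the 3 clusters of members, in chromosome order with equal spacing (x axis); filled points have an adjusted p under 0.05. The raised run on chromosome 13 spans Ecm2 to Ogn, and the points of Cenpp, Nol8 and Iars on its 2 sides are open, the lowest being Iars in C at -1.05.

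The enzymes that build the chains of these proteoglycans differed from the mixed cells gene by gene. Of 22 genes of chondroitin and dermatan sulfate synthesis, 20 were tested, and 6 were higher and 1 lower in A, 8 and 1 in B, and 7 and 0 in C. For this and the lists below, the shares to compare are those of all tested genes. They were 14.9% higher and 11.9% lower in A, 16.3% and 13% in B, and 14.8% and 13.8% in C. The median of the chondroitin and dermatan sulfate list was 0.89 in A, 0.80 in B and 1.04 in C. Ust, the uronyl sulfotransferase that sulfates iduronic acid in dermatan sulfate, led it, with 2.66 and 2.82 on the A arrays, 2.67 and 2.52 on B and 2.26 and 2.78 on C, against -3.50 and -0.83 in Pu. That is 30-fold in A, 27.1-fold in B and 25.8-fold in C, with Pu1 not above background. The log2 difference in A was 3.57 without Pu1, 6.24 without Pu2 and 3.25 with normexp. The gene called lower in A was Chst3 (-1.76 ± 0.46, limma adjusted p = 0.0295), a chondroitin 6-sulfotransferase. In B it was Chst15 (-1.47, 0.02), which makes the disulfated chondroitin unit. Both calls were fragile: that of Chst3 held in 10 of 19 alternatives and under normexp was -0.70 (0.0594), and that of Chst15 in 13 of 19, lost among others without Pu1, B1 or B2.

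Chst15 was also the listed gene that differed between types. It gave 2.22 and 2.72 on the B arrays against 4.65 and 5.35 on the C arrays, and the difference was -2.53 ± 0.35 (5.78-fold lower in B, limma adjusted p = 0.0162). Its order, with C highest and B lowest, runs opposite to that of Dcn and Aspn. The call was lost without A1, A2, B1, B2 or C2. A1 and A2 do not enter this difference and act only on the shared estimate of spread.

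For keratan sulfate, 6 of 7 genes were tested, with 1 higher and 2 lower in A, 1 and 1 in B and 2 and 1 in C. The medians were -0.79, -0.30 and -0.09. With 6 genes, counts of 1 are near the shares of all tested genes given above. B3gnt7, the N-acetylglucosaminyltransferase that extends the chain, was -5.84 and -3.79 on the A arrays, -3.72 and -3.87 on B and -3.45 and -3.60 on C, against 0.08 and -0.02 in Pu. It was well above background on C1 alone among the fibroblast arrays. It was at least 16.2-fold lower in A, at least 14.2-fold lower in B and 11.8-fold lower in C (limma adjusted p = 0.00149, 0.00384 and 0.00549). Normexp gave log2 differences of -1.67, -1.63 and -1.40, which also passed. B4galt1, a galactosyltransferase of the same chains, was higher by 1.64 in A, by 1.19 in B and by 1.15 in C. Leaving out 1 of the 8 arrays ended its call in 1 case for A, in 5 for B and in 7 for C. Tpst1, which sulfates tyrosines such as those of fibromodulin and osteomodulin, was 11.1-fold, 13.2-fold and 10.2-fold higher in A, B and C, and Tpst2 passed in none. For Tpst1, normexp gave 2.71, 2.94 and 2.5 on the log2 scale.

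Genes that cut or release these proteoglycans or process collagen were mostly higher: 8 of 9 tested in A, 8 in B and 7 in C, none lower, with medians of 3.02, 3.67 and 2.98. Mmp3, stromelysin, led in each type and gave 5.87 and 5.82 on the A arrays, 5.58 and 5.62 on B and 5.62 and 5.54 on C, against 0.33 and 1.58 in Pu. It was 29.6-fold, 25-fold and 24.7-fold higher. All 6 tested fibrillar collagen genes were higher in every type, with medians of 3.74, 3.53 and 3.09 and Col5a3 at the top (16.1-fold, 15.1-fold and 13.7-fold, with log2 differences of 2.55, 2.47 and 2.28 under normexp). Col1a1, Col1a2 and Col3a1 are also on the fibroblast marker list.

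Of 5 collagen VI genes 4 were tested, and 4 were higher in A, 4 in B and 3 in C. Col6a6 was at the top in A (4.94 ± 1.07, limma adjusted p = 0.0148) and B (5.09, 0.0127), from Pu arrays of -2.87 and -6.40 of which only Pu1 was well above background, and differed by 1.62 in C (0.303), or -0.15 without Pu2. Leaving out either array of the type ended its call, leaving out Pu2 gave 3.17 in A and 3.32 in B, leaving out Pu1 gave 6.71 and 6.86, and normexp gave 1.94 and 2.06. Among the hyalectans, large aggregating proteoglycans, Vcan (versican) was 14.9-fold, 25.5-fold and 13.6-fold higher in A, B and C, and the other 2 tested passed in none. Of 9 further members of the leucine-rich proteoglycan family 6 were tested, with 2 higher and 1 lower in A, 3 and 1 in B and 0 and 1 in C. Podnl1, podocan-like 1, was the gene called lower, at least 3.54-fold in A, 2.9-fold in B and at least 2.67-fold in C, and it was called in no type under normexp.

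**Figure D5:**
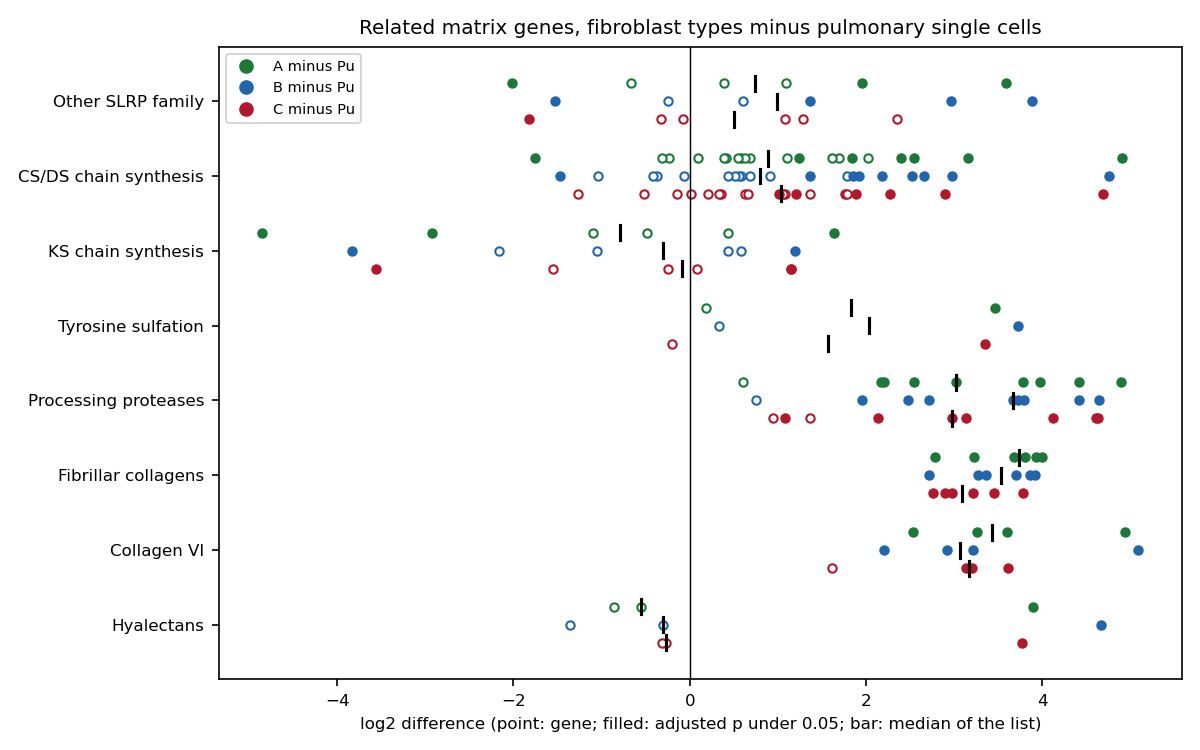
Log2 difference of the A, B and C fibroblast types from pulmonary single cells (x axis) for each tested gene of 8 lists related to these proteoglycans (y axis; CS/DS, chondroitin and dermatan sulfate; KS, keratan sulfate); filled points have an adjusted p under 0.05 and bars are list medians. All fibrillar collagen points lie right of 2, while the sulfate synthesis lists spread to both sides of 0.

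Cell type markers moved with all comparisons to Pu. The 6 fibroblast markers were all higher in each type, with mean levels over the list of 5.38 to 5.50 on the A arrays, 5.14 to 5.43 on B and 5.12 to 5.30 on C, against 2.46 to 2.73 in Pu, and all 6 were well above background on every array. The 7 leukocyte markers were all lower, at -3.63 to -3.43 in A, -3.76 to -3.30 in B and -3.26 to -2.56 in C, against 3.49 to 3.54 in Pu, and the 6 alveolar epithelial markers were all lower too. Endothelial markers lay at -2.45 to -2.04 in A, -2.28 to -2.0 in B and -3.14 to -2.53 in C, against 2.5 to 2.56 in Pu. Of these 7 markers, 6 were lower in A, 5 in B and 6 in C. The mean hides Kdr, at 1.96 and 1.67 on the B arrays against 2.97 and 3.54 in Pu. It also hides Tek, at 1.73 and 1.71 on the B arrays against 2.35 and 1.80 in Pu. Beside the Chad result, 2 of 5 tested cartilage markers were higher in A and B (Comp and Sox9) and 1 in C (Comp), and none was lower. Comp was well above background on neither Pu array (-5.07 and -5.74). Sox9 was not on Pu1 (-3.69), nor Col9a1 on Pu2 (-5.15). Acan (-0.86, -1.36 and -0.27 in A, B and C) and Col11a2 (-0.37, -0.45 and -0.35) had differences below 0 that did not pass. The mean over the 5 was -2.16 to -2.04 in A, -1.88 to -1.82 in B and -2.32 to -2.25 in C, against -4.12 to -2.82 in Pu, and Col2a1, Matn1, Matn3 and Cnmd failed the filter on dim probes. Mesothelial markers were at -5.24 to -5.11 in A, -4.77 to -4.24 in B and -5.21 to -5.20 in C, against -0.42 to 0.38 in Pu. Of these 5 markers, 4 were lower in A, 4 in B and 5 in C. Msln, Upk3b, Lrrn4 and Krt19 were well above background on no fibroblast array. Wt1 was not called in A or B, with -2.85 and -0.27 on the B arrays against -0.09 and -1.74 in Pu. Beside the differences between types, alveolar epithelial markers were at -2.93 to -2.27 in A, -2.70 to -1.95 in B and -1.46 to -1.07 in C, against 3.15 to 3.17 in Pu. In B minus C, Sftpc was lower (-3.58, limma adjusted p = 0.0339), and Tek (3.57, 0.00693) and Ly6a (4.92, 0.0166), which encodes the sorted Sca-1, were higher. C1 and C2 stood apart in Ly6a (2.96 and 0.61) and Sftpc (3.14 and 1.27), with C2 the lower as for Dcn and Lum. The same held for Thy1 (1.89 and -1.56), a gene named after its values were seen. The alveolar epithelial markers were split between these arrays. Sftpc, Hopx and Aqp5 were lower on C2 than on C1, while Sftpb, Sftpd and Ager were higher on C2. Among leukocyte markers, Lyz2 (-2.20 on C1 and -4.39 on C2), S100a8 (-2.68 and -5.02) and Tyrobp (-1.87 and -4.00) were higher on C1. Ptprc (-1.13 and -0.52) and Cd79a (-3.26 and -2.61) were higher on C2, and Cd3e differed little (-1.23 and -1.43). Laptm5 was well above background on neither. The erythroid markers Alas2 (0.39 and -2.14) and Hba-a1 (-0.65 and -1.89) were higher on C1. In Pu, Alas2 was 0.26 and 0.70. The part of any of these cells in the results was not tested.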

How the data were processed

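RNA from 8 lung cell samples was amplified from 10 ng and 2.0 µg of product was labelled with Cy3, per the labels' protocols. Per the file headers, the deposited scanner files hold background-subtracted spot intensity from Agilent Feature Extraction 10.10.1.1 (version also in the submitters' processing notes). The authors' deposited value table holds log2 values, and against the scanner values each column equalled log2 intensity minus a constant (100% of 55653 probes within 0.02, median 4.84 on each array), so it amounts to median scaling. It served as an alternative.

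Spots flagged as outliers were left out array by array, and the remaining spots of a probe were averaged. The 28 probes with no spot left on some array were dropped. Of 24034 genes named through RefSeq tables or the file's symbols, 17475 had a probe called well above background in 1 or more groups on both arrays; the brightest one represents its gene. The log2 intensity of each array was scaled to its 75th percentile. limma 3.58.1 in R 4.3.3 fitted 4 group means to all 8 arrays (4 residual and 3.07 prior degrees of freedom), with Benjamini-Hochberg adjustment in each of 6 comparisons. The 2 arrays a group limit the precision. The script was tested on simulated data with known changes, where large changes were mostly called and doublings seldom were.

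A fold is written "at least" where no array of the dimmer group was well above background. The dim arrays then enter at no less than the lowest signal that was well above background there.

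Members, lists and tests were chosen with earlier results of these data known. Named genes are the 10 members, the most raised and most lowered called gene of each list, the 2 nearest genes of each member whose means span over 2 log2 units (4-fold), and the 2 protein-coding neighbours on each side. Same-numbered samples did not deviate together (correlations of -0.0835 to 0.0585), so no pairing was used. Alternatives changed the scaling, background correction, filter, array weights, replicate block or arrays in the fit. Figures used matplotlib 3.10.9 and Python 3.11.15.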

Additional observations from a re-analysis of the deposited data

Results flagged for a closer look

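The flags compare effects against pulmonary single cells between types. Pu cancels from such a comparison, so each is the test between types already given and adds no further result. Between B-type and C-type fibroblasts, Dcn differed by 2.37 (limma adjusted p = 0.0407) and Aspn by 2.02 (0.0169) on the log2 scale. In both cases the B arrays lay above both C arrays. For Fmod the A arrays lay above both Pu arrays while the B arrays lay below them, a difference of 0.87 (limma adjusted p = 1), and the C arrays also lay below them, a difference from A of 1.22 (adjusted p = 0.189). Neither Fmod difference passed the test.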

How the results depend on the processing

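The counts of 8 members called higher against Pu stayed within 1.5 times their value under all alternatives, and no such member changed direction. Chad was not called lower in A with probes above background on all 8 arrays only, which drops it (0 called), or with array weights (0). In B this held for those 2 settings and normexp (0 each), and in C for those 3, median scaling, quantile normalization, the authors' table and the 4 compared arrays only (0 each). Leaving out 1 array gave 0 to 1 calls in each type. The lower count in A minus B became 1 with normexp and 1 with array weights. The higher count in A minus C became 2 with normexp, 1 with array weights, 1 with the 6 fibroblast arrays only (chosen after seeing the data) and 0 to 2 leaving out 1 array. The higher count in B minus C was 1 with quantile normalization, 1 without the filter, 1 with the 6 fibroblast arrays 0 with the 4 compared arrays, 3 with normexp, 3 with array weights and 0 to 3 leaving out 1 array (3 without C1). With the replicate number as a block, although the numbers do not pair the samples, it was 1, and the other counts did not change (8 higher and 1 lower in each type against Pu, 0 elsewhere). A block for slide or scan could not be fitted, because no group spans 2 slides.

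Small differences changed sign, none of them past the threshold: Fmod in B minus Pu (0.06 with median scaling, 0.06 in the authors' table) and in B minus C (-0.03 to 0.73 leaving out 1 array), and Ogn in B minus C (-0.0025 with median scaling, -0.11 with quantile normalization, -0.005 in the authors' table, -0.05 to 0.16 leaving out 1 array). Leaving out 1 array, Ogn ran from -0.17 to 0.42 in A minus B and from -0.11 to 0.47 in A minus C, and Chad from -0.82 to 0.13 in A minus B, -0.89 to 0.07 in A minus C and -0.34 to 0.21 in B minus C. Of 1158 single values, 1093 kept direction and call, 38 lost a call, 14 gained one and 13 changed sign. The cause was not tested.

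Median scaling moved the median of all genes by 0.33 in A minus Pu, 0.35 in B minus Pu and 0.40 in C minus Pu, and the share of called genes that were higher to 68.3%, 69.6% and 69.1%, against 55.7%, 55.6% and 51.8%. Scaling to the percentile of only those probes detected on all arrays moved the medians by -0.29, -0.32 and -0.31 and the shares to 41.5%, 38.7% and 35.9%. Leaving out 1 array or changing a setting took the called genes to between 2152 and 6830 in A minus Pu (4678 in the fit of all 8 arrays), 2358 and 7044 in B minus Pu (5106), 2161 and 6328 in C minus Pu (5008), 0 and 494 in A minus C (68) and 2 and 933 in B minus C (424). Dim signals limit Chad, Aspn in Pu and the bounds given as "at least".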
